A study of Xenopus laevis with 5 samples.

Results

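Transcripts of genes that make, carry and break down retinoic acid were read from Xenopus laevis ectodermal explants with an activated zic1 and from control explants. The genes were taken by symbol: every probe set whose only gene symbol in the platform annotation, without its copy suffix, was ptgds, crabp2, crabp1, aldh1a2, aldh1a1, aldh1a3, rdh10, dhrs3, cyp26a1 or cyp26c1. The array held 12 such probe sets of the 15490 tested, for 8 of the 10 genes, and they carried 11 different symbols. No probe set carried the symbol crabp1 or aldh1a3. This frog is allotetraploid, and the suffixes .L and .S tell its 2 copies of a gene apart. The older symbol ptgds-b is listed by the current gene table among the synonyms of ptgds.S. Those synonyms also include ptgds.L, so which copy the ptgds-b probe set measures is not settled.

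Retinoic acid is made from vitamin A in a pair of oxidation steps, from retinol to retinaldehyde and from retinaldehyde to retinoic acid. Binding proteins carry it to nuclear receptors that act on transcription, and enzymes of the Cyp26 family break it down. In the vertebrate embryo the signal patterns the hindbrain, the neural crest and the placodes. The gene activated here, zic1, codes for a zinc-finger regulator of transcription that acts in the neural plate and at its edge.

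Embryos with 2 cells were injected with noggin, a BMP inhibitor that turns ectoderm neural, together with either a hormone-inducible zic1 (2 arrays) or beta globin (3 control arrays). Ectoderm was cut out at stage 9 and grown to an age matching stage 12. Then cycloheximide, a block to protein synthesis, was added, and 30 min later dexamethasone, which activates the injected zic1 protein. Explants were taken after 3 h, and the controls had the same noggin, cycloheximide and dexamethasone, so neither group shows explants without these agents. The labels call the arrays of a group biological replicates without naming clutches, dates or the number of explants, so any p-value here rests on array-to-array spread, which may be technical.

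Each value is a linear ratio of a probe set's signal to its own median over the 5 arrays. Absolute signals were not kept, so no gene's level can be set against another's or against background, and 5 arrays set the precision. The injected gene followed the labels: zic1.S read at least 5.07 in zic1 and at most 1.00 in control explants in the more responsive of its 2 probe sets. The other probe set read 1.68 and 1.76 in zic1 and at most 1.00 in control explants. Of the 5 arrays, zic1 replicate 1 and control replicates 1 and 2 shared exactly equal values in 788 to 944 probe sets per pair, against 35 to 73 in the other 7 pairs. The labels do not state such a set, and values within it and within the remaining 2 arrays are given beside the main results.

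Among the 12 probe sets, the 2 for carriers of retinoids rose in the zic1 explants. Other retinoid-binding genes, read further below, did not pass the threshold. The secreted lipocalin ptgds-b was 12.7-fold higher and the cytoplasmic binding protein crabp2.L 3.65-fold higher than in controls. The remaining 10 probe sets, for the enzymes that make or remove retinoic acid, did not pass the threshold of an adjusted p of 0.05 (limma, adjusted over all 15490 probe sets). Past the threshold were thus 2 of 12 probe sets, both higher in zic1, where 1.10% of all probe sets were higher past it and 0.316% lower. At an unadjusted p under 0.05, 5 of the 12 were higher and 0 lower, against 10.6% and 10.3% of all probe sets. The 2 groups did not overlap in 8 of the 12: zic1 was higher in 7, against 19.9% of all probe sets, and lower in 1, against 19.4%. The median log2 difference of the 12 was 0.21, beside -0.0002 for all probe sets. The genes were chosen with earlier results of these data known. These shares thus describe the 12 and do not test them as a set.

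**Figure D1:**
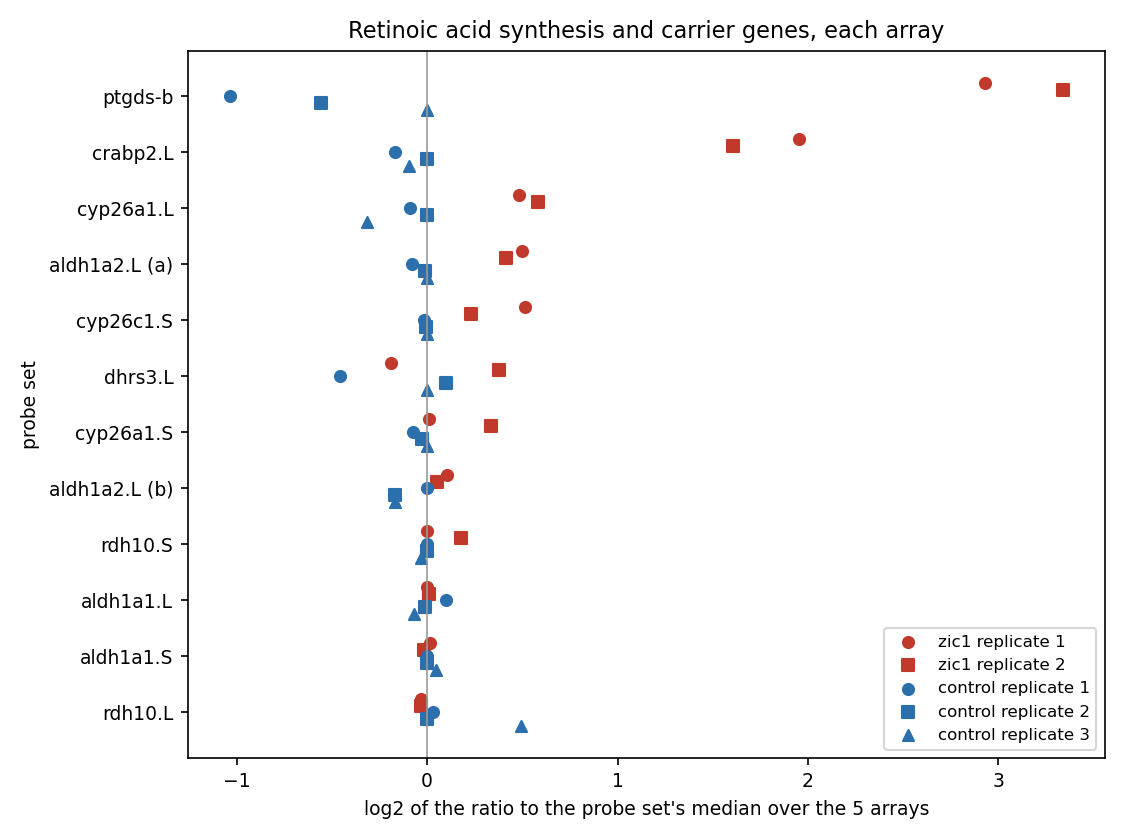
Each row is a probe set and each point an array; the horizontal axis is log2 of the ratio to the probe set's own median over the 5 arrays, red for zic1 and blue for control. The zic1 points of ptgds-b and crabp2.L lie far to the right of the control points, and the lower rows lie close to 0 in most arrays; (a) and (b) mark the 2 aldh1a2.L probe sets, (a) being the one with the larger difference.

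Ptgds is a lipocalin with more than 1 known activity: it makes prostaglandin D2, and in mammals it also binds retinoic acid and retinaldehyde outside cells. The frog protein is known from the choroid plexus, and its synonyms in the gene table include cpl1. Ratios of ptgds-b were 7.62 and 10.1 with zic1, and 0.487, 0.680 and 1.00 in control replicates 1 to 3. Both zic1 arrays lay far above all controls, and the controls themselves differed by 1.04 on the log2 scale between replicates 1 and 3. The zic1 mean was 3.14 ± 0.29 (SD, n = 2) and the control mean -0.53 ± 0.52 (SD, n = 3) in log2 ratios. This gave a log2 difference of 3.67 ± 0.32 (SE; adjusted p = 0.0283, limma), a fold of 12.7 with a 95% confidence interval from 7.24 to 22.3. It ranked 3 among all 15490 probe sets ordered from the highest difference down. In the set of 3 arrays the difference was 3.73, and in the remaining 2 arrays 3.34.

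Crabp2 binds retinoic acid in the cytoplasm and, in mammals, hands it to the nuclear receptors. Crabp2.L stood at 3.87 and 3.05 with zic1, and at 0.888, 1.00 and 0.937 without. The groups were far apart, and the controls lay within 0.17 of each other on the log2 scale, closer than those of ptgds-b. The log2 difference was 1.87 ± 0.13 (SE; adjusted p = 0.0134, limma), and the 95% interval of the fold ran from 2.92 to 4.57. Within the 2 sets of arrays it was 2.04 and 1.70. The order of the zic1 arrays was not the same for the carriers: ptgds-b was higher in replicate 2 and crabp2.L in replicate 1.

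Leaving out single arrays kept the size of both differences, from 3.41 to 3.93 for ptgds-b and from 1.70 to 2.04 for crabp2.L. The calls were kept only without control replicate 3 (limma adjusted p = 0.0324 and 0.0405). For ptgds-b the adjusted p was 0.379 without zic1 replicate 1, 0.232 without zic1 replicate 2, 0.0623 without control replicate 1 and 0.130 without control replicate 2. For crabp2.L the same fits gave 0.324, 0.232, 0.0685 and 0.112. With a block for the 2 sets both passed narrowly (limma adjusted p = 0.0484 and 0.0498). Cyclic loess of the ratios left 0.58 for ptgds-b and turned crabp2.L to -0.36, neither past the threshold (adjusted p = 0.338 and 0.162), and without variance moderation both also failed (0.257 and 0.228). The loess curve follows the mean log2 ratio, which in this table holds the group difference itself. The same setting turned the injected zic1.S from 2.56 to -0.23 in its more responsive probe set. A loss under it, here or below, thus does not tell a weak difference from a strong one.

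**Figure D2:**
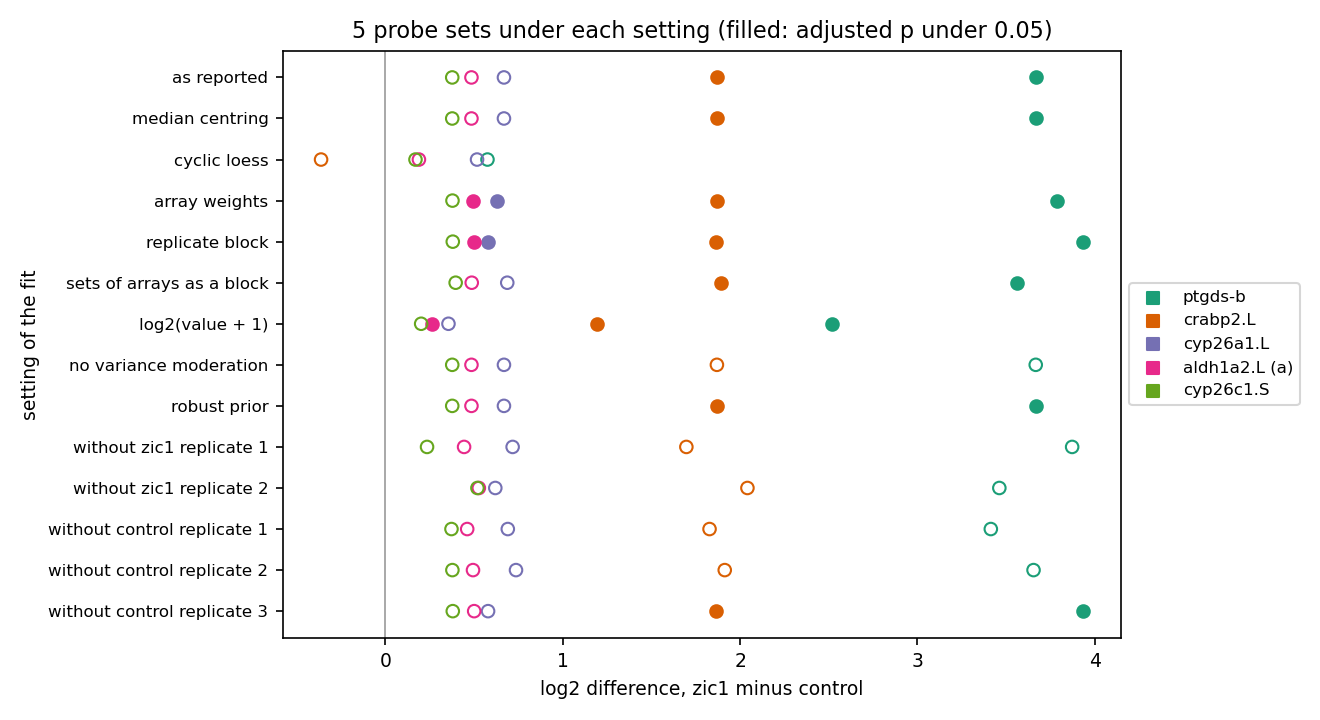
The log2 difference between zic1 and control (horizontal axis) of the 5 probe sets with the highest differences is shown for the fit as reported and for 13 alternatives; filled points have an adjusted p under 0.05, open points do not. Ptgds-b stays above 3.4 when any 1 array is left out, though its point is filled there only without control replicate 3, and cyclic loess moves it to 0.58 and crabp2.L to -0.36.

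The enzymes that make retinoic acid differed little. Of their 6 probe sets 0 passed (limma), and 1 was higher at an unadjusted p under 0.05 (10.6% of all probe sets). The median log2 difference was 0.05. Aldh1a2 is the main retinaldehyde dehydrogenase of the early vertebrate embryo. Its first probe set (a in the plots) gave 1.41 and 1.33 with zic1, and 0.947, 0.991 and 1.00 in control explants. The arrays of each group lay close together and the groups did not overlap. The log2 difference was 0.49 ± 0.07 (adjusted p = 0.0557, limma), a fold of 1.40 with a 95% interval from 1.23 to 1.60. Array weights brought it past the threshold (adjusted p = 0.0282), as did log2(value + 1) (0.0441). Cyclic loess cut the difference to 0.19 (adjusted p = 0.214), a block for the 2 sets of arrays gave an adjusted p of 0.101, and without single arrays the adjusted p ran from 0.0638 to 0.473.

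A second aldh1a2.L probe set (b in the plots) gave 1.08 and 1.04 with zic1, and 1.00, 0.888 and 0.891 in control explants. These groups also did not overlap, but lay closer together, with a log2 difference of 0.19 ± 0.09 (adjusted p = 0.298, limma; 95% interval -0.03 to 0.41). The 2 probe sets of this gene thus gave differences 0.29 apart on the log2 scale (two-sided exact permutation p = 0.1, the smallest that 10 arrangements of the arrays allow, and 0.2 adjusted over 4 such pairs).

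Aldh1a1 makes retinoic acid by the same reaction. Aldh1a1.L was at 1.00 and 1.005 with zic1, and at 1.07, 0.991 and 0.952 in control explants, and the zic1 arrays fell among the controls. Its log2 difference was -0.0018 (95% interval -0.21 to 0.21). Aldh1a1.S ranged from 0.987 to 1.01 in zic1 and from 1.00 to 1.03 in control, with a difference of -0.02 (95% interval -0.19 to 0.16).

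Rdh10 oxidises retinol to retinaldehyde, the first step. Rdh10.L was at 0.977 and 0.976 with zic1, and at 1.02, 1.00 and 1.41 in control explants. It was the only one of the 12 whose zic1 arrays both lay below all controls, by a small margin except against control replicate 3. The difference was -0.21 ± 0.17 (adjusted p = 0.546, limma), and it was -0.05 without control replicate 3. Rdh10.S was exactly 1 in the 3 arrays of the set with shared values, 1.13 in zic1 replicate 2 and 0.979 in control replicate 3, so its difference of 0.10 ± 0.08 (adjusted p = 0.563) came from zic1 replicate 2.

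**Figure D3:**
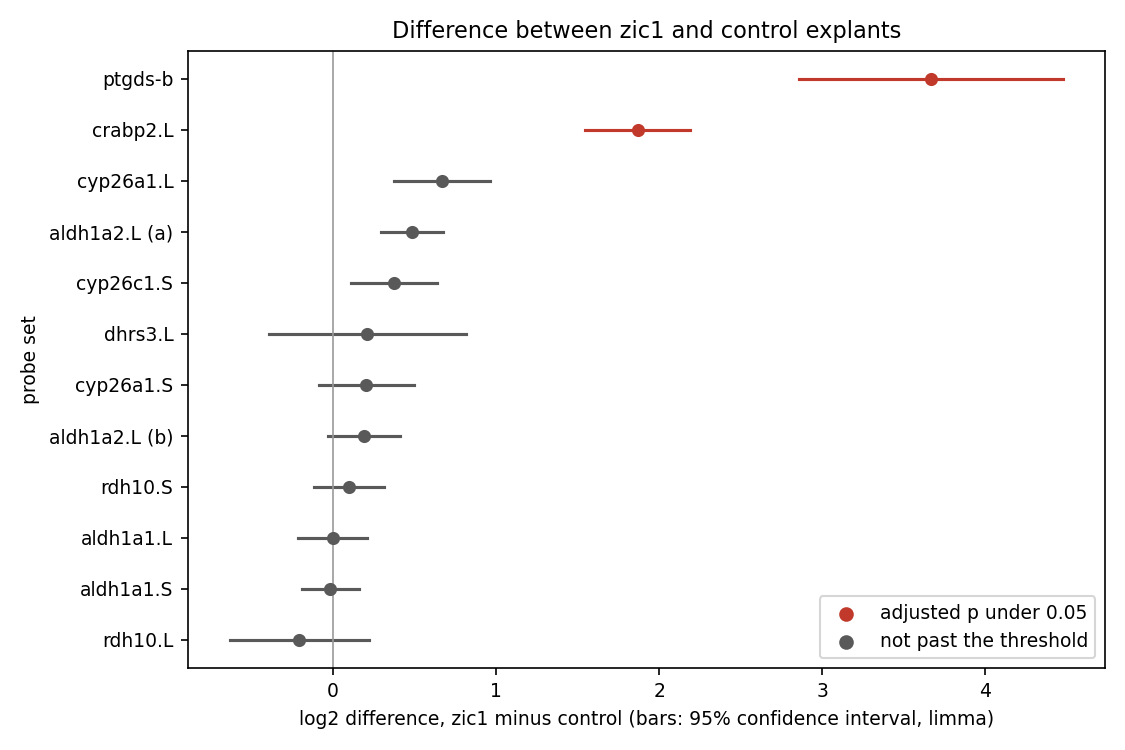
Points are log2 differences, zic1 minus control, for the 12 probe sets, and bars are 95% confidence intervals from limma; red marks an adjusted p under 0.05. The intervals of ptgds-b (2.86 to 4.48) and crabp2.L (1.55 to 2.19) lie apart from those of the other 10, of which only cyp26a1.L, one aldh1a2.L and cyp26c1.S lie wholly above 0.

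The enzymes that remove retinoic acid or its precursor all had differences above 0 (49.9% of all probe sets), and 0 of 4 passed (limma). Of the 4, 2 were higher at an unadjusted p under 0.05 (10.6% of all probe sets), and the median was 0.29. Cyp26a1 oxidises retinoic acid to inactive products, and its gene is itself induced by retinoic acid in many vertebrate embryos. Cyp26a1.L was at 1.40 and 1.50 with zic1, and at 0.938, 1.00 and 0.804 in control explants. The groups were well separated, by more than the spread within either. The log2 difference was 0.67 ± 0.12 (adjusted p = 0.0657, limma), a fold of 1.59 with a 95% interval from 1.30 to 1.95. It passed with array weights (limma adjusted p = 0.0312), but not with a block for the 2 sets of arrays (0.102). After cyclic loess the difference was 0.52 (adjusted p = 0.154). Without single control arrays it did not pass either (limma adjusted p from 0.0597 to 0.145).

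The other copy, cyp26a1.S, read 1.01 and 1.26 in zic1 and 0.950, 0.981 and 1.00 in control. Here zic1 replicate 1 lay beside the highest control, and the difference of 0.21 ± 0.12 (adjusted p = 0.384; 95% interval -0.09 to 0.50) rested mainly on replicate 2: it was 0.04 without that array. The zic1 minus control differences of the 2 copies lay 0.46 apart on the log2 scale. The two-sided exact permutation p was 0.1, the smallest possible, and 0.2 adjusted over 4 pairs. In the other pairs of copies this gap was 0.02 for aldh1a1 (exact permutation p = 0.9) and 0.31 for rdh10 (p = 0.3). With 2 arrays against 3 none of the 4 pairs could reach 0.05.

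Cyp26c1, a further member of the family, was represented by its .S copy. Cyp26c1.S was at 1.43 and 1.17 with zic1, and between 0.990 and 1.00 in the controls. Both zic1 arrays were higher, by unequal amounts, and the difference was 0.38 ± 0.10 (adjusted p = 0.130, limma). It fell to 0.24 without zic1 replicate 1 and to 0.17 after cyclic loess. Dhrs3 returns retinaldehyde to retinol and so lowers the supply. Dhrs3.L overlapped between the groups, with 0.877 and 1.30 in zic1 and 0.728, 1.07 and 1.00 in control, and its difference of 0.21 ± 0.24 (adjusted p = 0.677) had a wide 95% interval from -0.39 to 0.82; without zic1 replicate 2 it was -0.07.

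The wider retinoid pathway was read from 4 lists with 48 probe sets, of which 0 passed the threshold (limma). At an unadjusted p under 0.05, 8 were higher and 4 lower in zic1, against 10.6% and 10.3% of all probe sets. Genes of retinoid binding, transport and storage, 5 of 14 on the array, had 6 probe sets with a median of -0.0048. All 6 overlapped between the groups, as did 9400 of all 15490 probe sets. The list included rbp4.L (0.01) and rbp4.S (0.02), the carrier of retinol in blood. The smallest p in that list were those of rpe65.S, an enzyme of the visual cycle (-0.56 ± 0.33, adjusted p = 0.406, and -0.32 without control replicate 3), and rlbp1.L, a retinaldehyde-binding protein (-0.07 ± 0.08, adjusted p = 0.677).

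Other enzymes of retinol and retinaldehyde, 11 of 19 on the array, had a median of -0.10 over 12 probe sets, and 2 were lower at an unadjusted p under 0.05 (10.3% of all probe sets). These were adh5.L (-0.67 ± 0.21, adjusted p = 0.169), an alcohol dehydrogenase that acts mainly on formaldehyde adducts, and dhrs4.L (-0.41 ± 0.16, adjusted p = 0.227), a carbonyl reductase. Without zic1 replicate 1 adh5.L lay at -0.43. A second adh5.L probe set lay at 0.06.

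Among nuclear receptors and their cofactors, 9 of 14 genes on the array gave 12 probe sets with a median of 0.03. The receptor probe sets themselves lay between -0.68 for rxrb.S and 0.12 for rarg.S, and rara.L differed by 0.01. The highest differences were those of cofactors: the coactivator ncoa3.S at 1.33 ± 0.22 and the corepressor ncor1.S at 0.94 ± 0.16, neither past the threshold (adjusted p = 0.0611 for each, limma). A second ncor1.S probe set also lay at 0.94 (adjusted p = 0.0729). Array weights brought ncoa3.S (adjusted p = 0.0325) and the first ncor1.S probe set (0.0338) past the threshold. A block for the 2 sets of arrays did not (limma adjusted p = 0.109 and 0.0894), and cyclic loess cut ncoa3.S to 0.21.

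Genes known to respond to retinoic acid in vertebrate embryos, 13 of 28 on the array, had a median of 0.13 over 18 probe sets, of which 4 were higher and 1 lower at an unadjusted p under 0.05 (10.6% and 10.3% of all probe sets). The homeobox gene cdx1.S was at 1.64 and 1.42 with zic1, and at 0.719, 0.610 and 1.00 in control explants. Its groups did not overlap (1.01 ± 0.22, adjusted p = 0.0911, limma), but a second cdx1.S probe set differed by 0.19. The first passed with array weights (limma adjusted p = 0.0327), but not with a block for the 2 sets of arrays (0.134) or after cyclic loess (0.154). Without single control arrays it did not pass either (limma adjusted p from 0.051 to 0.203). Lhx1.L, a LIM homeobox gene, differed by 0.37 ± 0.10 (adjusted p = 0.131). Hox genes on this list lay between -0.09 for hoxd3.L and 0.13 for hoxa2.L. Cycloheximide was added before zic1 was activated, so this list cannot show effects that need newly made carrier protein.

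Since ptgds also makes a prostaglandin, the genes of prostaglandin metabolism and other lipocalins were read too, 7 of 25 on the array with 13 probe sets. Of these 0 passed (limma), 0 were higher and 3 lower at an unadjusted p under 0.05 (10.6% and 10.3% of all probe sets), and the median was -0.01. The following were chosen after their values were seen. Hpgds, the haematopoietic prostaglandin D synthase, is not a lipocalin, and its copies differed by -0.20 (hpgds.S) and 0.10 (hpgds.L). The cyclooxygenases, which supply the substrate, differed by -0.32 ± 0.11 for ptgs2.S (adjusted p = 0.195) and by -0.62 ± 0.56 for ptgs1.S, whose controls ranged from 0.697 to 2.42. Ptgs1.S depended on single controls: the difference was -1.19 without control replicate 3, past the threshold (limma adjusted p = 0.0393), -0.39 without control replicate 2 and -0.29 without control replicate 1, and -1.84 after cyclic loess (adjusted p = 0.171).

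**Figure D4:**
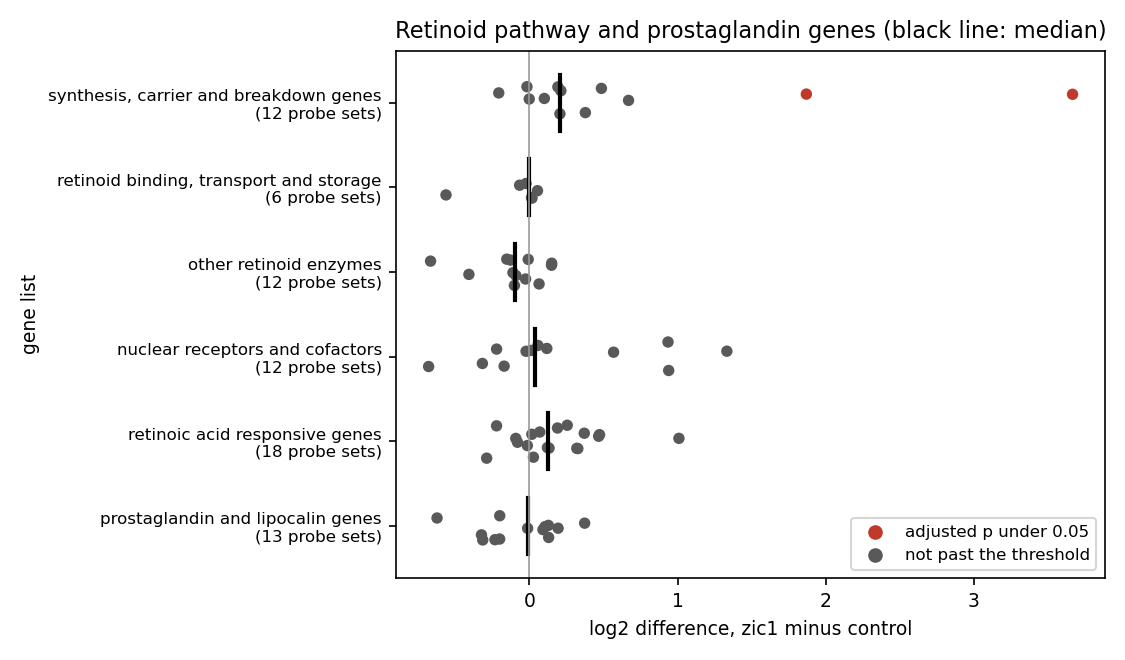
Each point is a probe set, placed by its log2 difference between zic1 and control, in rows for the 12 probe sets described above and for 5 further lists; the vertical scatter within a row carries no value. The 2 red points, ptgds-b and crabp2.L, are the only ones past an adjusted p of 0.05, and the black medians of the rows lie between -0.10 and 0.21.

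The probe sets nearest to the carriers were found among 9302 others with 1 symbol, by Euclidean distance of log2 ratios over the 5 arrays. The distance uses the same values as the comparison, so it describes and does not test. Nearest to ptgds-b were the muscle determination factor myod1.S (distance 0.979), the glutathione S-transferase gsta1.L (1.07) and snai1.S, a zinc-finger repressor of crest and mesoderm (1.11). Nearest to crabp2.L were cyp27c1.S (0.358), 1 of 3 sall1.L probe sets (0.374) and the planar polarity gene prickle1.L (0.493). The other sall1.L probe sets differed by 0.44 and 0.09.

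Cyp27c1 is known in zebrafish and bullfrog as the enzyme that turns vitamin A1 into vitamin A2, and it was on none of the lists above. Cyp27c1.S was at 3.60 and 3.70 with zic1, and at 0.782, 1.00 and 0.988 in control explants. Both zic1 arrays lay far above the controls and close to each other. It rose by 1.99 ± 0.13 (SE; adjusted p = 0.0134, limma), a fold of 3.98 with a 95% interval from 3.16 to 5.01. Cyp27c1.S was picked for lying nearest to crabp2.L in these same values. A difference close to that of crabp2.L thus follows from the choice, and its p is no separate support. Leaving out single arrays kept the size between 1.88 and 2.05, but the call was lost without zic1 replicate 1 (limma adjusted p = 0.379), zic1 replicate 2 (0.232) or control replicate 2 (0.104), and without variance moderation (0.228). Cyclic loess turned it to -0.28 (adjusted p = 0.361).

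**Figure D5:**
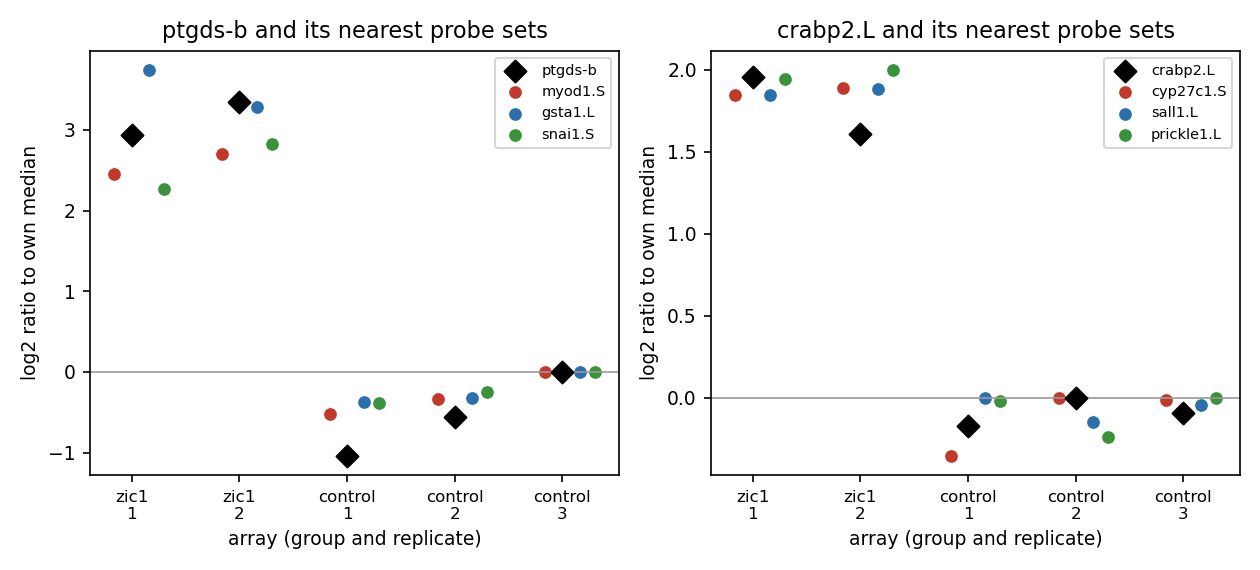
Log2 ratios (vertical axis) of ptgds-b, crabp2.L and the 3 probe sets nearest to each are plotted for the 5 arrays. Around ptgds-b the points spread by over 1 unit in zic1 replicate 1, where gsta1.L is highest, while cyp27c1.S, sall1.L and prickle1.L lie within 0.5 of crabp2.L in every array.

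Markers of some other tissues differed between the groups, and in explants fewer cells of a type and less RNA per cell cannot be told apart. Neural plate markers averaged 0.31 to 0.32 (log2) in the zic1 arrays and -0.26 to -0.03 in the controls. In difference, 12 of 12 probe sets lay above 0 (49.9% of all probe sets). Past the threshold 1 was higher (1.10% of all), and this was zic2.L (0.91, limma adjusted p = 0.0432). Of the 12, 8 were higher and 0 lower at an unadjusted p under 0.05 (10.6% and 10.3% of all probe sets). Neural crest and border markers averaged 0.34 to 0.44 against -0.05 to -0.02, with 3 of 15 higher past the threshold (1.10% of all). Those past it were snai1.S (2.76), pax3.S (1.46) and a pax3.L probe set (0.67). In that list 6 were higher and 2 lower at an unadjusted p under 0.05 (10.6% and 10.3% of all probe sets). The lower ones were msx1.L (-0.62) and msx1.S (-0.39), and a pax3.L probe set lay at -0.50. Mesoderm and muscle markers averaged 0.60 to 0.75 against -0.28 to 0.06, with 3 of 12 higher past the threshold (1.10% of all). These were myod1.S, myod1.L and vegt.L. At an unadjusted p under 0.05, 5 of the mesoderm and muscle probe sets were higher and 0 lower (10.6% and 10.3% of all probe sets). The median log2 difference of that list was 0.21, and 2 of its probe sets lay below 0, mespa.S (-0.18) and acta1.S (-0.07). Cement gland markers averaged -0.46 to -0.24 against -0.15 to 0.70, the highest being control replicate 2. Of these, 2 of 9 were lower past the threshold (0.316% of all), both from cgl.2 (cgl.2.L and cgl.2.S). Unadjusted, 0 were higher and 4 lower at p under 0.05 (10.6% and 10.3% of all probe sets). In difference all 9 lay below 0, as did 7758 of all 15490 probe sets.

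Epidermal markers averaged -0.28 to -0.01 against -0.18 to 0.27, and 0 of 17 passed (limma). Of these, 0 were higher and 2 lower at an unadjusted p under 0.05 (10.6% and 10.3% of all probe sets). Endoderm markers had 0 of 12 past the threshold (limma), with 1 higher and 2 lower unadjusted (10.6% and 10.3% of all probe sets). Their log2 differences ran from -2.04 to 0.36, with a median of -0.43. Both zic1 arrays lay below all controls in 6 of the 12 and above them in 1 (19.4% and 19.9% of all probe sets). The endoderm list averaged -0.39 to -0.27 against -0.07 to 0.74, the highest being control replicate 3. Without that array the differences were 3.93 for ptgds-b and 1.87 for crabp2.L. Ratios do not show whether a marker is at or near background, and the part of these tissues in the differences of ptgds-b, crabp2.L and cyp27c1.S was not tested.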

How the data were processed

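GCOS and RMA are named, per the submitters' processing notes, with no versions and no order. The deposited values are linear ratios, found from the values themselves: the median over the 5 arrays was exactly 1 in all 15571 probe sets with 5 values. Of 15572 probe sets, 81 Affymetrix controls and 1 without zic1 values were left out. Symbols came from the platform annotation (9303 probe sets with 1 symbol, 195 with several, 5992 with none here), 2 updated by gene identifier, with 9226 matched to the gene table. No coordinates are given, and no sequences were used here, so the planned search of promoter letters was not run.

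Log2 ratios, without a pseudocount, were compared with limma 3.58.1 (lmFit, eBayes) in R 4.3.3; p-values were adjusted after Benjamini and Hochberg over 15490 probe sets, and the fit was checked on simulated data. There were 3 residual and 2.29 prior degrees of freedom. Genes beyond the 12 probe sets were named by rule: past the threshold or the 2 smallest p in each of 4 pathway lists, the 3 nearest probe sets to each called member, and zic1. Outside that rule, and chosen after their values were seen, are the prostaglandin genes, rbp4, rxrb.S, rarg.S, rara.L, hoxd3.L, hoxa2.L, the called and opposing tissue markers and second probe sets of named genes. Genes and lists were chosen with earlier results of these data known. The other settings tried were cyclic loess, array weights, median centring, 2 blocks, log2(value + 1), other moderation, another threshold and leaving out each array. A pseudocount of 16 and a filter on dim probe sets need array signals and were not run. Plots used matplotlib 3.10.9 in Python 3.11.15.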

Additional observations from a re-analysis of the deposited data

How the results depend on the processing

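The count of 219 probe sets past the threshold (170 higher, 49 lower) became 1054 at an adjusted p under 0.10, 37 when the 2 sets were a block (33 higher, 4 lower), 935 under array weights (584 higher, 351 lower), and 0 after cyclic loess (3331 at an unadjusted p under 0.05) or without variance moderation (2096 unadjusted). Leaving out single arrays gave 0 to 207. For the 12 probe sets the count of 2 became 4 at an adjusted p under 0.10 and with array weights, 0 after cyclic loess (3 unadjusted) and without moderation (5 unadjusted), and 0 to 2 without single arrays. The replicate number as a block gave 2692 calls (1334 higher, 1358 lower) and 4 of the 12, the added ones being cyp26a1.L (limma adjusted p = 0.0179) and aldh1a2.L (0.0276); it also called ncoa3.S (0.00632), ncor1.S (0.0107), cdx1.S (0.00723), lhx1.L (0.0316), adh5.L (0.012) and ptgs1.S (0.00811). Control replicate 3 was alone in its block, so this fit rested on 2 pairs of arrays. Its differences equalled those without that array (3.93 for ptgds-b, 1.87 for crabp2.L). The replicate numbers are not stated to mark a shared batch. Deviations of same-numbered arrays from their group means correlated at 0.32 and 0.28 across probe sets. The deviations of the 2 zic1 arrays are exact opposites, so these correlations are not independent of each other. With 2 pairs this pairing is a hint from the data only. Cyclic loess turned crabp2.L (-0.36), zic1.S (-0.23), myod1.S (-0.0058), gsta1.L (-0.28), snai1.S (-0.20), cyp27c1.S (-0.28), sall1.L (-0.45) and prickle1.L (-0.42); its curve follows the mean ratio, which holds the group difference. Near 0, aldh1a1.L became 0.0086 with a block for the sets. Without single arrays aldh1a1.L ran from -0.04 to 0.0456, dhrs3.L from -0.0701 to 0.49, and the lowest sall1.L probe set from -0.0068 to 0.28. Median centring could move nothing, since each array's median is 1. Of 144 values of the 12 probe sets under the other 12 alternatives, 123 kept direction and side of the threshold, 11 lost the call, 5 gained it and 5 turned. Only the 2 called probe sets had a call to lose. Over all 13 alternatives, median centring included, ptgds-b kept its call in 7 and lost it in 6. Crabp2.L kept its call in 7, lost it in 5 and turned in 1. A lone zic1 array was assumed to vary like the controls. Signal over background is unknown in a table of ratios.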
